A study of Mus musculus with 18 samples.

Results

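The nuclear-encoded subunits of the mitochondrial respiratory chain and of ATP synthase were followed in mouse embryonic fibroblasts (MEFs), cultured cells of embryonic connective tissue. Genes were taken by name from the annotation: protein-coding genes whose symbol starts with Ndufa, Ndufb, Ndufc, Ndufs or Ndufv (without the Ndufaf genes), Sdha to Sdhd, and those that start with Uqcr, Cox4i, Cox5, Cox6, Cox7, Cox8 or Atp5. This gave 90 of the 55487 genes in the table: 38 for complex I, 4 for complex II, 8 for complex III, 21 for complex IV and 19 for complex V. Ndufa4 and Ndufa4l2 were counted with complex IV, since Ndufa4 is known as a subunit of that complex despite its name. Cells had received no uracil (control), 10 µM or 30 µM uracil in full growth medium for 24 h, and each dose had 6 libraries of total RNA, numbered 1 to 6 in the labels. The study calls the 6 libraries of a dose biological replicates, but neither it nor the labels gives a strain or genotype for these cells or says what a number marks (a culture, an embryo or a day), so p-values measure the spread between these libraries, which may be technical. Whether uracil shifts transcripts of the respiratory chain in these cells was asked in 3 dose comparisons.

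The respiratory chain sits in the inner mitochondrial membrane. Complex I (NADH dehydrogenase) and complex II (succinate dehydrogenase) pass electrons to ubiquinone, complex III passes them from ubiquinol to cytochrome c, and complex IV (cytochrome c oxidase) hands them to oxygen, while complexes I, III and IV pump protons that drive ATP synthase, complex V. Most subunits are encoded in the nucleus and imported, a few core subunits of every complex but II are encoded by mitochondrial DNA, and the one step of new pyrimidine synthesis that takes place in mitochondria, catalysed by Dhodh, feeds electrons into the same ubiquinone pool. Several complex IV subunits exist as a general form and a form of heart and skeletal muscle, lung or testis.

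Counts assigned to genes were 11600038 to 20775298 per library in 15 libraries, with 1.72% to 3.59% of reads unaligned. Control 1 (3963932 counts, 54.2% unaligned) and 30 µM 6 (7392564 counts, 37.9%) stood apart, and 10 µM 6 had the next largest unaligned share (5.24%). The study removed 1 vehicle and 1 30 µM sample that contained human RNA, and the labels do not name them. All 18 libraries therefore entered the tests, and each comparison was repeated without control 1, 10 µM 6 and 30 µM 6. The study kept all 6 libraries at 10 µM, so leaving out 10 µM 6 departs from it. All 9 fibroblast markers were tested and summed to 25275 to 29529.5 CPM (counts scaled to the library's TMM-corrected size) in the 15 libraries, 38927 in control 1 and 57067 in 30 µM 6, while summed immune markers were 1.36 to 3.08 CPM and summed endothelial markers 7.18 to 11.8 CPM.

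Together the 90 genes took 0.905% to 1.01% of gene counts in the 15 libraries, but 0.711% in control 1, 0.828% in 10 µM 6 and 0.701% in 30 µM 6. In the 15 libraries (SD, n = 5 per dose), the CPM of complex I summed to 2243 ± 74.7 in control, 2329 ± 54.6 at 10 µM and 2324 ± 64.1 at 30 µM. The highest control library (2369 CPM) lay among the uracil libraries. Complex II, whose nuclear genes form the whole complex, summed to 477 ± 5.40 in control, 482 ± 10.5 at 10 µM and 489 ± 19.7 at 30 µM. The sum for complex III was 837 ± 41.1 in control, 856 ± 26.7 at 10 µM and 866 ± 14.1 at 30 µM. Complex IV summed to 1606 ± 64.1 in control, 1655 ± 50.7 at 10 µM and 1628 ± 30.7 at 30 µM, and complex V to 4245 ± 209 in control, 4317 ± 130.2 at 10 µM and 4334 ± 202 at 30 µM. In every complex the ranges of the 3 doses overlapped. Sums weight long and abundant transcripts and were not tested.

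**Figure D1:**
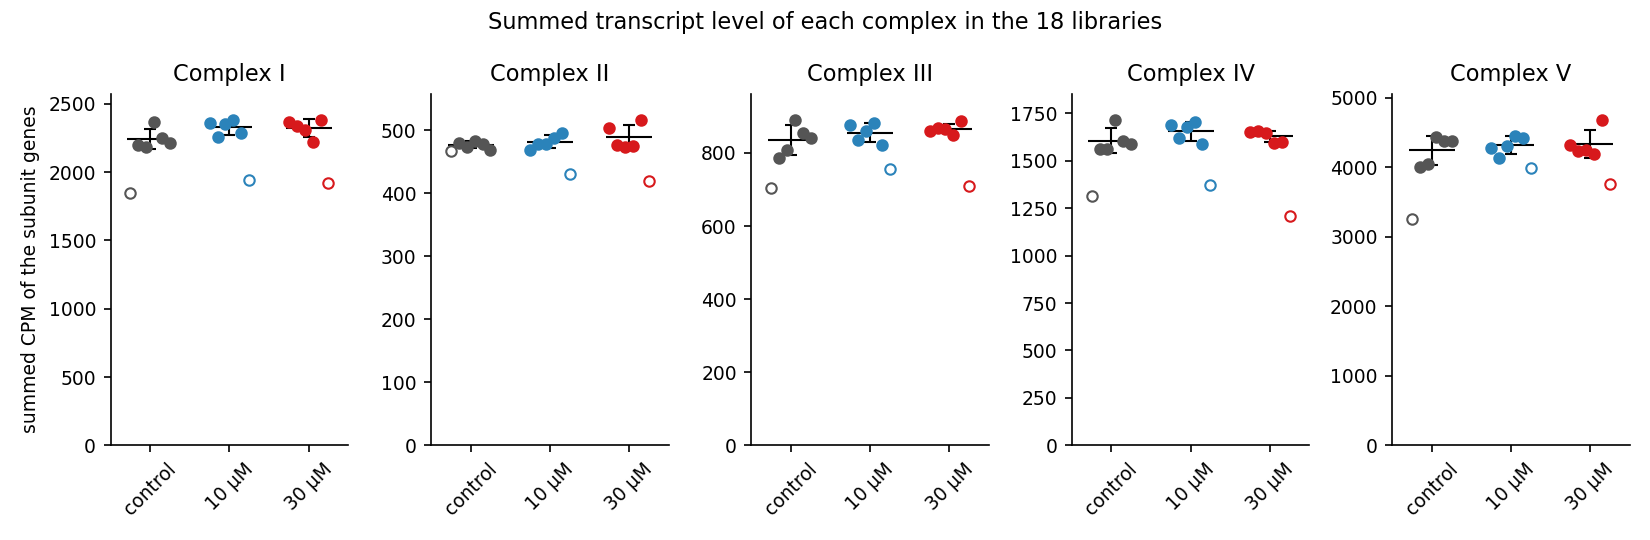
Summed CPM of the subunit genes of each complex (y axis, from 0) in every library, by dose. Open circles are control 1, 10 µM 6 and 30 µM 6, and the bar and whiskers are the mean ± SD of the other 5 libraries of the dose. For complex IV the open circles sit at 1313, 1373 and 1206 CPM, below all filled ones (1561 to 1717 CPM).

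Most single subunits were low in these libraries too. Of 80 genes with a mean of 1 CPM or more, 58 were lower in control 1 than in every other control library, against 38% of all genes at that level, and 72 were the lowest of their dose in 10 µM 6 (30.8% of all genes). In 30 µM 6 the number was 66 (38.1% of all genes), and 45 genes were lowest in all 3. The median ratio to the other 5 libraries of the dose was 0.829 in control 1, 0.837 in 10 µM 6 and 0.726 in 30 µM 6, while over all genes it was 0.987, 0.985 and 0.980. By complex the median ratio in 30 µM 6 ran from 0.672 (complex IV) to 0.840 (complex II), and in control 1 from 0.747 (complex III) to 0.941 (complex II).

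A minority went the other way. In control 1, 11 genes were above every other control library (36.3% of all genes), led by Cox5a, a subunit of complex IV, at 1.45 times its mates, with Sdhc, Uqcrb, Uqcrh, Uqcrfs1, Ndufv2, Ndufb11, Ndufc2, Atp5mc3, Atp5mj and Atp5pb. In 30 µM 6 there were 8 (34.2% of all genes): Ndufs7, an iron-sulphur subunit of complex I at 1.44 times its mates, Atp5f1d, Cox6a1, Ndufa13, Ndufa2, Ndufa8, Ndufb7 and Uqcrc1. These genes are named after their values were seen. 10 µM 6 had 0 (29.6% of all genes), and no gene was highest of its dose in both control 1 and 30 µM 6. The lowest ratios were 0.326 for Atp5mc2 in control 1 and 0.288 for Cox5b-ps in 30 µM 6. These 3 libraries have the largest shares of unaligned reads, and control 1 and 30 µM 6 the highest summed fibroblast markers. The 3 also have the lowest shares of reads aligned to several places. These were 5.59% in control 1, 13.9% in 10 µM 6 and 6.46% in 30 µM 6, against 17.4% to 20.2% in the 15 libraries. The part of any of these differences in the subunit values was not tested.

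**Figure D2:**
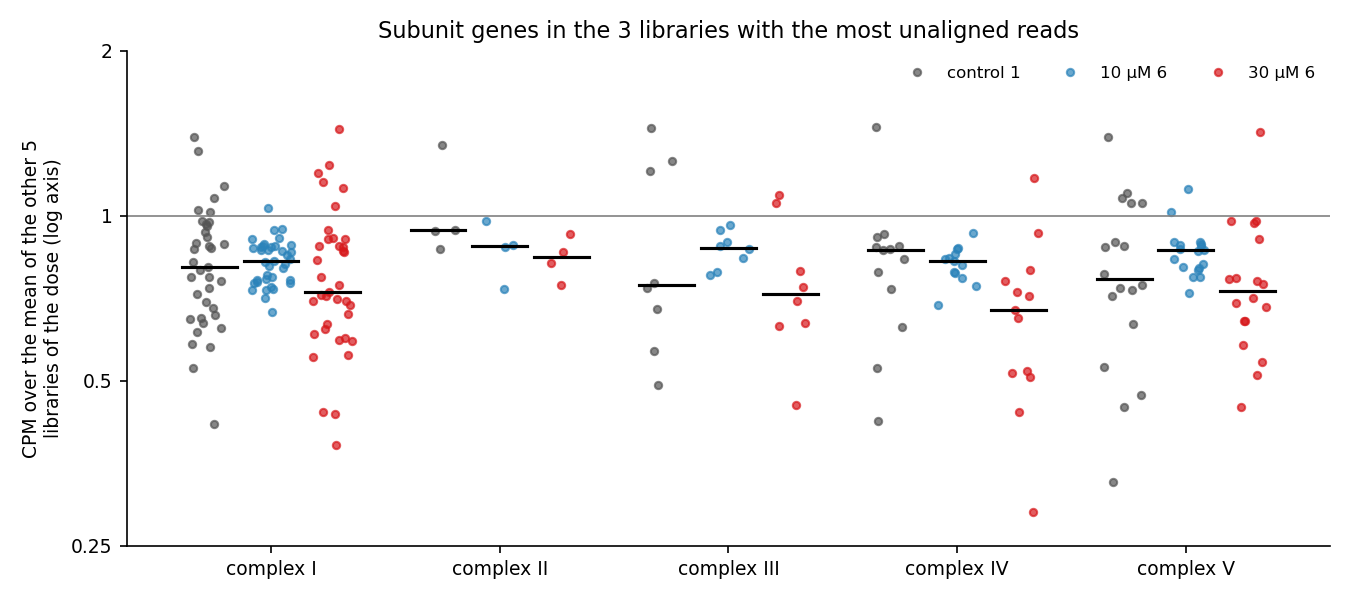
Each point is 1 subunit gene: its CPM in control 1, 10 µM 6 or 30 µM 6 over the mean of the other 5 libraries of the same dose (log axis), by complex, for the 80 genes with a mean of 1 CPM or more. Black bars are medians, which lie below 1 in every complex and library, and the points of 10 µM 6 spread less than those of the other 2 libraries.

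Levels between genes were compared as CPM per kilobase of the annotated main transcript, over the 15 libraries. The highest was Atp5f1b, the catalytic beta subunit of ATP synthase, at 808 CPM per kb, followed by Cox4i1, a regulatory subunit of complex IV, at 401 and Atp5f1a, the alpha subunit, at 386. The medians over the genes tested were 49.5 CPM per kb for complex I, 45.5 for complex II, 67.2 for complex III, 145 for complex IV and 113 for complex V. Within complex I the level ran from 8.72 CPM per kb for Ndufb2 to 139 for Ndufb8, both accessory subunits of the membrane arm. In complex II the flavoprotein Sdha (64.3 CPM per kb) and the membrane anchor Sdhd (77.5) stood above the iron-sulphur subunit Sdhb (25.3) and the anchor Sdhc (26.7). Complex III ran from 32.3 for the small subunit Uqcr11 to 143 for the core protein Uqcrc1, and in complex V the lowest was Atp5mj at 18.7.

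The order rests on the transcript length assumed. With all annotated exons joined, Atp5f1b still ranked 1, but Cox4i1 moved from rank 2 to 6 and Ndufb8 from 14 to 41. In complex II Sdhd (38.2 CPM per kb) then stayed highest and Sdhb (12.2) lowest, but Sdha (23.8) and Sdhc (21.3) stood close. In the annotation 49 of the 90 genes are overlapped by a gene on the other strand and 6 by a coding gene on the same strand (Ndufa13, Ndufb2, Ndufb8, Ndufb9 and both Atp5po entries), so that their counts are uncertain. The strand setting of the counting is not given in the sources used here. Another 18 rows with matching names are pseudogenes, which held 39.6 CPM in all, most of it (24.5 CPM) for Ndufa12-ps.

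The genes at the ends of each complex overlapped between doses. Ndufb8 was 71.9 to 97.5 CPM in control (median 92.2), 75.2 to 102 at 10 µM (median 96.4) and 58.03 to 99.5 at 30 µM (median 94.4). Ndufb2 was 34.5 to 43.6 in control (median 38.2), 34.5 to 38.9 at 10 µM (median 38.1) and 33.9 to 39.2 at 30 µM (median 37.04). Uqcrc1 was 158 to 254 in control (median 228), 217 to 244 at 10 µM (median 232) and 235 to 258 at 30 µM (median 244). Control 1 is the lowest control library of all 3, and 30 µM 6 is the highest 30 µM library of Uqcrc1. Uqcr11 was 50.4 to 97.9 in control (median 87.1), 78.6 to 97.4 at 10 µM (median 88.2) and 55.1 to 96.5 at 30 µM (median 85.3). Atp5f1b was 1108 to 1696 in control (median 1521), 1432 to 1676 at 10 µM (median 1526) and 1476 to 1879.8 at 30 µM (median 1522). Atp5mj, a small protein tied to ATP synthase, was 50.2 to 72.2 in control (median 51.7), 45.8 to 57.3 at 10 µM (median 55.8) and 36.98 to 58.2 at 30 µM (median 53.5). The lowest 30 µM library of Uqcr11 and Atp5mj is 30 µM 6, and the highest control value of Atp5mj is control 1.

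**Figure D3:**
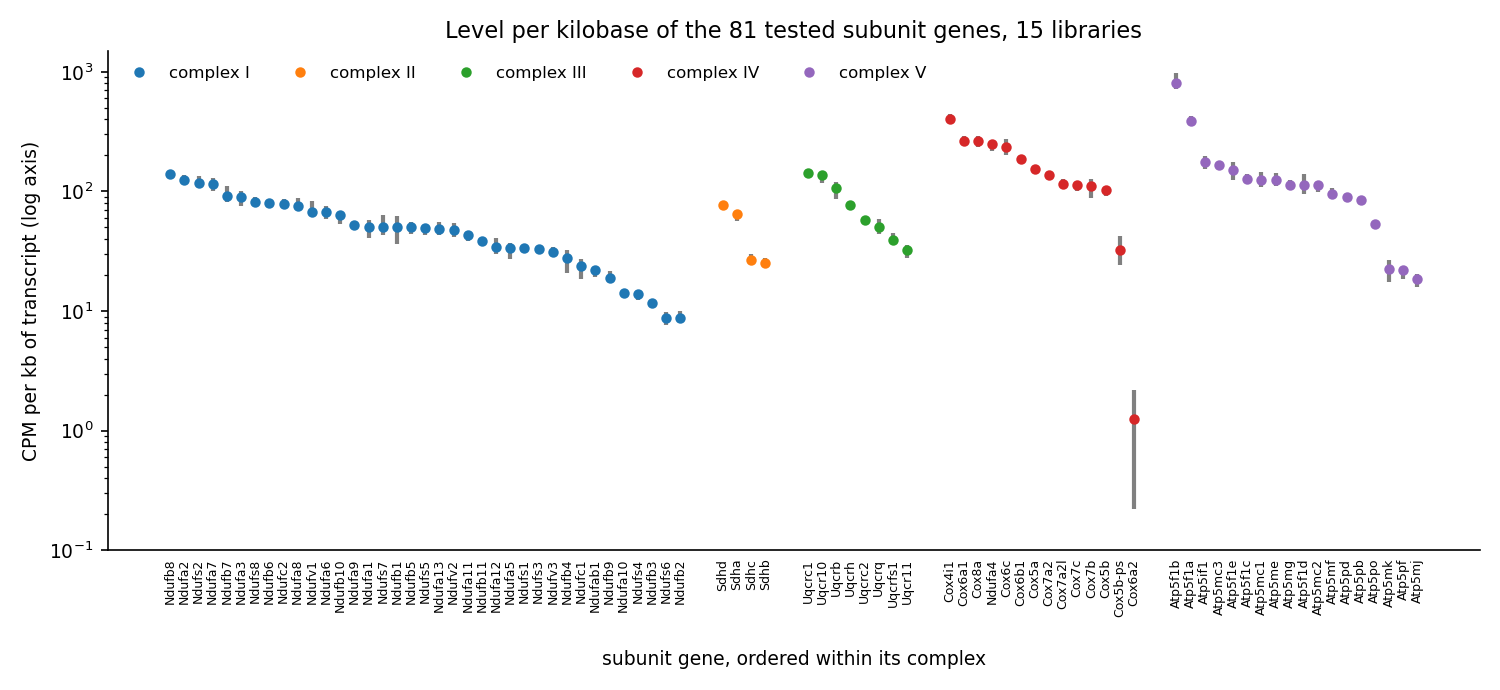
Mean CPM per kb of transcript (log axis) of the 81 tested subunit genes in the 15 libraries, ordered within each complex, with a grey line from the lowest to the highest library. Atp5f1b (808) and Cox6a2 (1.26) are the extremes, and most grey lines are short beside the distances between genes.

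Library to library the subunits varied little. The SD of log2 CPM over the 15 libraries had a median of 0.082 over the 81 genes and of 0.139 over all genes, although the subunits were also the more abundant, with a median of 78.6 CPM against 23.3. Cox6a2 had the largest SD among the 81 at 0.843, on at most 22 counts per library.

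In each isoform pair of complex IV the general form carried nearly all counts (shares of counts, with no correction for length). Cox4i2, the hypoxia-linked lung form, had 15 counts in 18 libraries beside 79317 for Cox4i1, a share of 0.0189% (exact 95% interval 0.0106% to 0.0312%). Cox7a1, the muscle form, had 23 beside 27766 for Cox7a2 (0.0828%, 0.0525% to 0.124%), and Ndufa4l2 19 beside 32968 for Ndufa4 (0.0576%, 0.0347% to 0.0899%). The muscle form Cox6a2 reached 0.532% of the Cox6a counts (0.461% to 0.609%) and the testis form Cox6b2 0.434% of the Cox6b counts (0.364% to 0.514%). Cox8b, Cox8c and Cox7b2 had 0 counts in all libraries, which allows at most 0.00816% beside Cox8a and 0.0107% beside Cox7b (3 counts). These limits cover counting error only. Of the 9 genes too low to test, 7 are these forms (Cox4i2, Cox6b2, Cox7a1, Cox7b2, Cox8b, Cox8c and Ndufa4l2), and the others are Ndufb11b, with 1 count in all, and a second Atp5po entry, with 1.

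No general form separated the doses. Cox4i1 was 272 to 327 CPM in control (median 304), 268 to 336 at 10 µM (median 309) and 296 to 348 at 30 µM (median 312). Cox6a1 was 111 to 166 CPM in control (median 147), 128 to 155 at 10 µM (median 146) and 143 to 177 at 30 µM (median 152). Cox6b1 was 63.02 to 128 in control (median 117), 98.6 to 133 at 10 µM (median 124) and 87.7 to 129 at 30 µM (median 120.4). Cox6a1 and Cox6b1 are small subunits where the enzyme forms dimers. The ranges of these 3 genes overlap between doses, and the lowest control value of each is control 1. Cox7a2 was 99.7 to 119 in control (median 105), 93.5 to 121 at 10 µM (median 111) and 57.4 to 118 at 30 µM (median 109). Cox7b was 94.3 to 115 in control (median 105), 87.2 to 125 at 10 µM (median 115) and 48.3 to 128 at 30 µM (median 107). Cox8a was 63.02 to 161 in control (median 146), 118 to 163 at 10 µM (median 147) and 93.9 to 155 at 30 µM (median 141). These subunits each span the membrane once, and their ranges overlap too, with 30 µM 6 as the lowest 30 µM library of each. Ndufa4 was 113 to 135 in control (median 127), 112 to 141 at 10 µM (median 135) and 65.6 to 135 at 30 µM (median 132). Cox7a2l, a factor that joins complexes III and IV into supercomplexes, was 111 to 159.7 in control (median 136), 120.2 to 152 at 10 µM (median 142) and 115 to 149 at 30 µM (median 143). Of the minor forms, Cox6a2 was 0.386 to 1.13 CPM in control, and its dose groups overlapped as well.

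The 4 genes of complex II overlapped between doses as well. Sdha was 173 to 209 CPM in control (median 197), 174 to 210.2 at 10 µM (median 189.8) and 186 to 212 at 30 µM (median 198). Sdhb was 93.5 to 106 in control (median 97.03), 90.5 to 109 at 10 µM (median 101) and 88.8 to 111 at 30 µM (median 100.4). Sdhd was 88.9 to 97.8 in control (median 93.3), 88.6 to 103 at 10 µM (median 101) and 73.2 to 102 at 30 µM (median 95.9). The lowest 30 µM value of each is that of 30 µM 6. Sdhc was 81.1 to 112 in control (median 84.5), 63.7 to 95.4 at 10 µM (median 84.6) and 71.2 to 93.8 at 30 µM (median 84.3), the highest control value being control 1. In complex V the 3 genes for subunit c, which encode the same mature protein of the proton-driven rotor, stood at 165 (Atp5mc3), 125 (Atp5mc1) and 112 CPM per kb (Atp5mc2). Atp5mc3 was 164 to 174 in control (median 165), 147 to 167 at 10 µM (median 165) and 103 to 173 at 30 µM (median 158). Atp5mc2 was 26.4 to 88.6 in control (median 78.4), 65.8 to 89.3 at 10 µM (median 84.03) and 46.6 to 86.1 at 30 µM (median 79.2). Atp5mc1 was 40.7 to 89.4 in control (median 73.9), 68.9 to 83.8 at 10 µM (median 75.2) and 57.1 to 76.2 at 30 µM (median 74.5). The doses overlap for each, and the lowest control value of Atp5mc2 and Atp5mc1 is control 1.

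No subunit gene passed the test in any dose comparison. With edgeR's quasi-likelihood test on all 18 libraries and Benjamini-Hochberg adjustment over 13865 genes, 0 of 81 passed an adjusted p of 0.05 at 10 µM against control (0% of all genes), 0 for 30 µM uracil with the same control libraries (0%), 0 between 30 µM and 10 µM (0%) and 0 among the 3 doses (0%). The smallest adjusted p among the subunits was 0.931, at 30 µM. DESeq2 and limma voom with quality weights also called 0 in each comparison. At an unadjusted p under 0.05 there were 0 subunits at 10 µM (0.692% of all genes), 2 at 30 µM (4.29%) and 1 between the doses of uracil (2.33%).

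The precision was enough to bound most genes. For 77 of 81 at 10 µM, 78 at 30 µM and 74 between the 2 doses, the 95% interval of the log2 fold change lay inside -0.5 to 0.5, which is a change of under 1.41-fold. Without the 3 libraries these numbers were 79, 79 and 80, and the wider intervals were those of Cox6a2 and Cox5b-ps, a gene named as a Cox5b pseudogene but annotated as coding. Log2 fold changes ranged from -0.092 to 0.26 at 10 µM and from -0.21 to 0.21 at 30 µM.

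At 10 µM, 64 of 81 log2 fold changes were above 0 (52.7% of all genes), with a median of 0.056 beside 0.0059 over all genes. At 30 µM it was 45 of 81 (53.5%, median 0.010 beside 0.012), and between 30 µM and 10 µM 28 of 81 (52.1%, median -0.039 beside 0.0057). Complex by complex the median log2 fold changes at 10 µM were 0.049 for complex I, 0.0018 for complex II, 0.070 for complex III, 0.068 for complex IV and 0.065 for complex V. Subunits vary together between libraries, and both uracil doses share the control libraries, so these counts carry no test.

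Without control 1, 10 µM 6 and 30 µM 6 the direction was 70 of 81 above 0 at 10 µM (49.5% of all genes, median 0.051), 61 at 30 µM (48.5%, median 0.033) and 29 between the doses (51%, median -0.024). The study kept 10 µM 6. When only 10 µM 6 was left out the median at 10 µM was 0.10, and when only control 1 was left out it was 0.012. Without the 3 libraries again 0 subunits passed in any of the 3 contrasts (0%, 0% and 0% of all genes) or among the doses (0%). Unadjusted p under 0.05 was reached by 9 subunits at 10 µM (4.72% of all genes), all with higher values and named after these were seen: Ndufv2, Atp5pb, Atp5if1, Ndufb11, Cox5b-ps, Sdhd, Ndufs3, Uqcrb and Ndufa6, the largest being 0.32 for Cox5b-ps. At 30 µM there were 2, Ndufb3 and Ndufa9 (4.33%), and between the doses 0 (1.88%). With the number as a block, which pairs the 10 µM and 30 µM libraries, the count between the doses was 4 in the 15 libraries (4.84%), all lower at 30 µM, and 0 in all 18 (4.24%), and 0 passed an adjusted p of 0.05 in either fit.

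**Figure D4:**
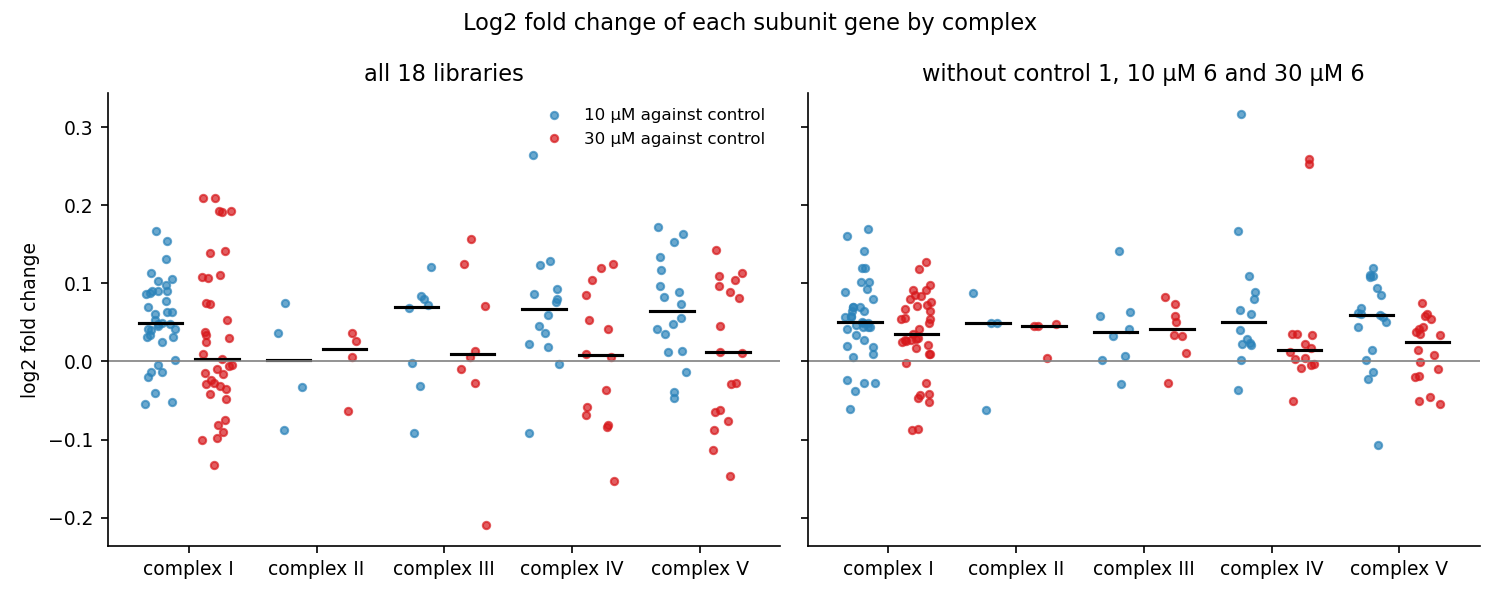
Log2 fold change of each of the 81 tested subunit genes at 10 µM (blue) and 30 µM (red) against control, by complex, with all 18 libraries (left) and without control 1, 10 µM 6 and 30 µM 6 (right). Black bars are the medians of a complex. No point passes the test, and on the left all lie between -0.21 and 0.26.

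At 10 µM the 3 subunits with the smallest p were Atp5if1, Uqcrfs1 and Cox5b-ps. Atp5if1 is the inhibitor that keeps ATP synthase from running backwards. It was 98.3 to 116 CPM in control (median 112), 105 to 131 at 10 µM (median 117) and 112 to 119 at 30 µM (median 116), and its log2 fold change at 10 µM was 0.12 (SE 0.059, 95% interval -0.0073 to 0.24). Uqcrfs1 is the Rieske iron-sulphur protein of complex III. It was 80.7 to 109 CPM in control (median 87.7), 81.02 to 89.2 at 10 µM (median 84.1) and 84.6 to 98.9 at 30 µM (median 87.7), with a log2 fold change of -0.092 (SE 0.067, 95% interval -0.23 to 0.049) and the highest control value in control 1. Cox5b-ps was 12.03 to 18.0005 in control (median 12.3), 11.96 to 21.2 at 10 µM (median 16.3) and 4.80 to 19.02 at 30 µM (median 16.4), and its log2 fold change was 0.26 (SE 0.22, 95% interval -0.20 to 0.73). Control and 10 µM libraries of all 3 genes overlapped.

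At 30 µM the 3 smallest p were those of Ndufb7, Ndufa2 and Ndufa13, accessory subunits of complex I. All 3 are among the 8 genes that were highest in 30 µM 6. Ndufb7 was 45.2 to 57.9 CPM in control (median 54.1), 49.1 to 58.4 at 10 µM (median 55.8) and 53.1 to 71.8 at 30 µM (median 59.9). Its log2 fold change was 0.21 (SE 0.080, 95% interval 0.043 to 0.38) against control and 0.18 (SE 0.079, 95% interval 0.012 to 0.34) against 10 µM, and 0.12 (SE 0.063, 95% interval -0.015 to 0.25) against control without the 3 libraries. The unadjusted p of Ndufb7 against control was 0.0166, and 0.0776 without the 3 libraries. Ndufa2 was 66.6 to 76.9 in control (median 68.02), 62.3 to 78.9 at 10 µM (median 72.6) and 70.2 to 85.9 at 30 µM (median 75.4). For Ndufa2 the log2 fold change against control was 0.14 (SE 0.065, 95% interval 0.0029 to 0.27), and 0.092 (SE 0.051, 95% interval -0.015 to 0.20) without the 3 libraries. Ndufa13 was 57.6 to 95.1 in control (median 90.4), 75.7 to 94.5 at 10 µM (median 91.99) and 85.9 to 107 at 30 µM (median 95.9). The value for Ndufa13 was 0.19 (SE 0.10, 95% interval -0.012 to 0.39), and 0.072 (SE 0.050, 95% interval -0.034 to 0.18) without the 3 libraries. In each case the dose groups overlapped. Between 30 µM and 10 µM the list held Ndufb7, Ndufa2 and Atp5mk, a small membrane subunit of ATP synthase. Atp5mk was 48.5 to 65.6 in control (median 60.97), 59.8 to 75.4 at 10 µM (median 63.9) and 33.1 to 70.2 at 30 µM (median 59.5), and its log2 fold change between the doses was -0.21 (SE 0.13, 95% interval -0.49 to 0.067).

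The replicate number of the labels was also tested. In a model with dose and number, 5 of 81 subunits passed an adjusted p of 0.05 in edgeR's quasi-likelihood F test, a share below the 12.6% of all genes: Atp5f1d (adjusted p = 0.0101), Ndufs7 (0.0105), Uqcrh (0.0234), Ndufb5 (0.0392) and Ndufa5 (0.0444). By complex these are 3 of 37 in complex I, 1 of 8 in complex III and 1 of 18 in complex V, with 0 of 4 in complex II and 0 of 14 in complex IV. Without the 3 libraries 8 passed (20.8% of all genes): Atp5f1d (4.99e-05), Ndufs7 (1.66e-04), Atp5f1b (2.11e-04), Uqcr11 (0.00424), Cox6a2, Cox7b, Ndufc1 and Uqcrq. Atp5f1d and Ndufs7 were the 2 genes called in both. Without the 3 libraries number 6 rests on control 6 alone. When only control 6 was left out 23 passed, 28.05% of the subunits beside 23.3% of all genes, and when only control 1 was left out 18 did, 22.2% beside 25.03%. The share of subunits called was thus below that of all genes with all 18 libraries and above it without control 6.

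Atp5f1d encodes the delta subunit in the central stalk of ATP synthase. Its CPM, in the order control, 10 µM, 30 µM where each was kept, was 161 and 177 for number 1, 176, 167 and 174 for number 2, 177, 178 and 184 for number 3, 197, 204 and 186 for number 4, 222, 208 and 235 for number 5 and 211 for number 6. Every value kept of numbers 4 to 6 lay above every value kept of numbers 1 to 3, while control 1 was 125, 10 µM 6 205 and 30 µM 6 272 CPM. Ndufs7, in the order of the same libraries, was 36.1 and 38.3 for number 1, 35.6, 35.6 and 41.1 for number 2, 37.2, 39.1 and 42.3 for number 3, 42.6, 46.7 and 41.3 for number 4, 47.1, 48.3 and 53.2 for number 5 and 48.5 for number 6 CPM, and control 1 was 27.5, 10 µM 6 42.5 and 30 µM 6 62.4 CPM. Here too number 5 lay above numbers 1 to 3 in every library kept. Uqcr11 was 86.4 and 82.1 for number 1, 76.2, 80.1 and 83.3 for number 2, 78.2, 89.9 and 88.8 for number 3, 96.1, 93.3 and 87.3 for number 4, 97.9, 97.4 and 96.5 for number 5 and 96.3 for number 6 CPM, and control 1 was 50.4, 10 µM 6 78.6 and 30 µM 6 55.1 CPM. With all 18 libraries it did not pass (adjusted p = 0.464).

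Of the genes called with all libraries, Uqcrh, Ndufb5 and Ndufa5 had their lowest mean in number 6, which in the 15 libraries is control 6 alone. When each library was left out in turn, Ndufb5 did not pass in 16 of 18 runs and Uqcrh in 5. Uqcrh, the hinge protein of complex III, was 114 and 116 for number 1, 108, 113 and 119 for number 2, 109, 115 and 109.8 for number 3, 113, 113 and 108 for number 4, 100.3, 99.8 and 107 for number 5 and 99.3 for number 6 CPM, and control 1 was 128, 10 µM 6 86.7 and 30 µM 6 83.1 CPM. Ndufb5 was 55.2 and 59.5 for number 1, 54.6, 55.5 and 54.8 for number 2, 55.7, 55.01 and 52.9 for number 3, 59.2, 54.1 and 52.5 for number 4, 51.1, 50.1 and 55.04 for number 5 and 47.5 for number 6 CPM, and control 1 was 51.7, 10 µM 6 41.1 and 30 µM 6 41.005 CPM. Ndufa5, an accessory subunit of complex I, was 31.6 and 32.3 for number 1, 29.5, 31.1 and 30.4 for number 2, 28.2, 30.3 and 30.8 for number 3, 28.1, 30.2 and 27.05 for number 4, 31.1, 30.2 and 27.5 for number 5 and 23.7 for number 6 CPM, and control 1 was 25.05, 10 µM 6 23.1 and 30 µM 6 17.5 CPM. Ndufb5 did not pass without the 3 libraries (adjusted p = 0.229), nor did Uqcrh (adjusted p = 0.147) and Ndufa5 (0.196). Atp5f1b was 1457 and 1496 for number 1, 1376, 1432 and 1476 for number 2, 1443, 1491 and 1509 for number 3, 1598, 1614 and 1535 for number 4, 1657, 1676 and 1879.8 for number 5 and 1696 for number 6 CPM, and every library kept of numbers 4 to 6 lay above those of numbers 1 to 3. The ratio of the highest to the lowest number mean was 1.35 for Ndufa5, 1.31 for Atp5f1d, 1.33 for Ndufs7, 1.22 for Uqcr11 and 1.22 for Atp5f1b over the 15 libraries.

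Markers of mesothelial cells, the lining of body cavities, moved with the number. The 4 mesothelial markers (Upk3b, Msln, Wt1 and Lrrn4) were all called by number (12.6% of all genes), and their summed CPM in the 15 libraries was 43.7 to 45.2 for number 1, 39.8 to 43.2 for number 2, 44.9 to 47.9 for number 3, 102 to 108 for number 4, 154 to 174 for number 5 and 129 for number 6. Of the epithelial markers 1 of 3 tested was called, Krt14, and their summed CPM was 6.46 to 16.9 in numbers 1 to 3 and 23.1 to 43.5 in numbers 4 to 6 of the 15 libraries, without overlap. Of the fibroblast markers 5 of 9 were called. No endothelial or immune marker passed (0 of 2 tested each), and Pecam1, Cdh5, Ptprc and Adgre1 were at most 0.369 CPM in any library. The summed CPM in the 15 libraries was 7.18 to 11.8 for the endothelial and 1.36 to 3.08 for the immune list. Kdr, Tek, Cd68 and Csf1r carried the rest of these sums. The part of the cell mixture in the subunit values was not tested, and fewer cells of a type and less RNA per cell cannot be told apart in these bulk libraries.

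**Figure D5:**
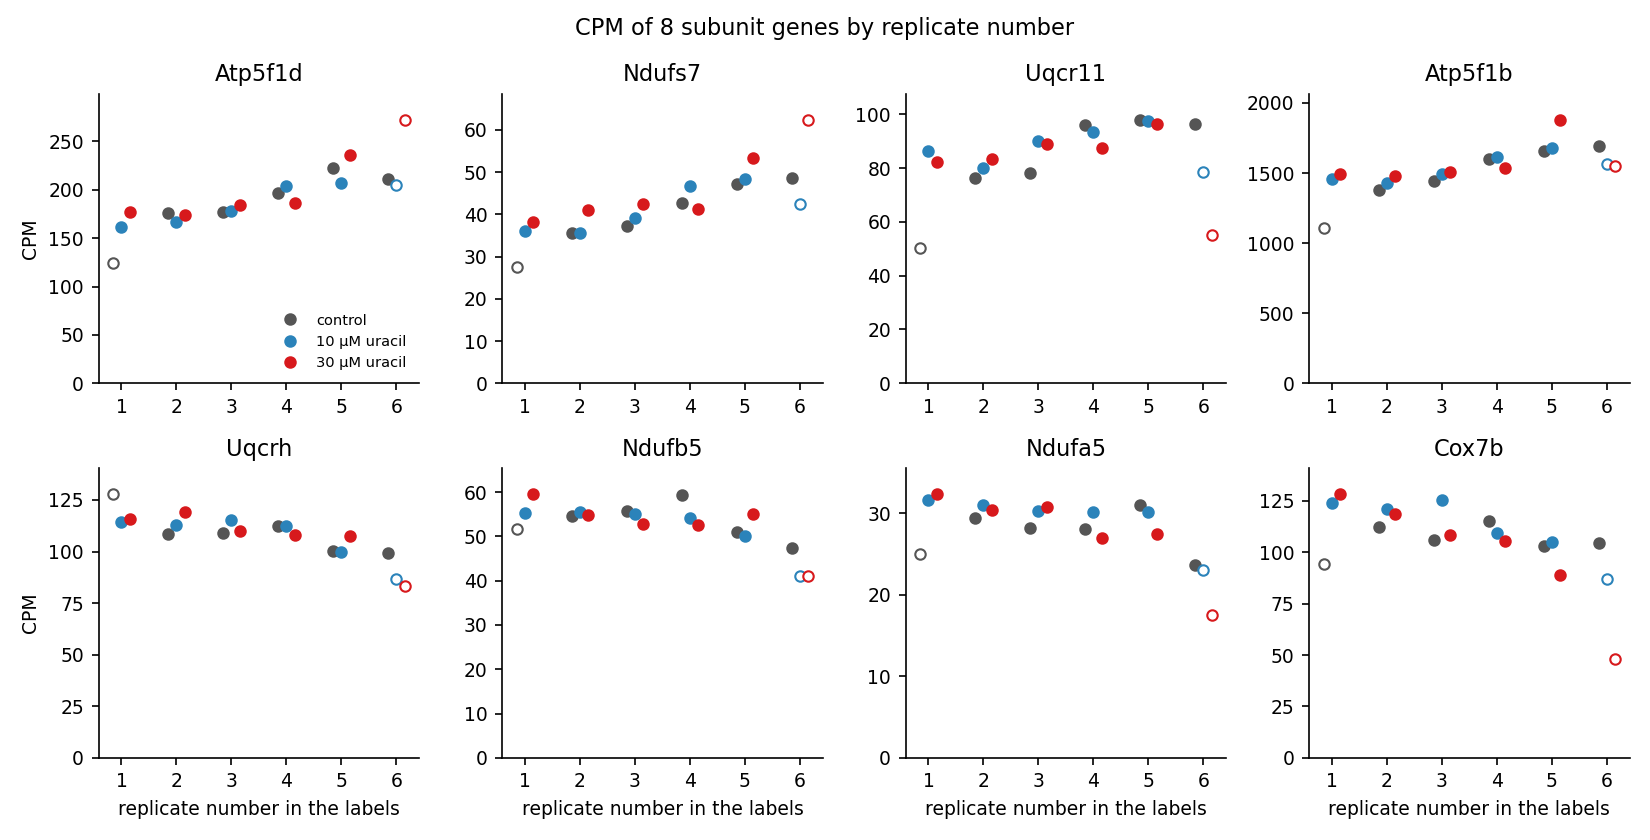
CPM (y axis, from 0) of 8 subunit genes by the replicate number in the labels: control in grey, 10 µM in blue, 30 µM in red, with open circles for control 1, 10 µM 6 and 30 µM 6. Atp5f1d, Ndufs7, Uqcr11 and Atp5f1b in the top row stand higher in number 5 than in number 2 at each dose.

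Atp5f1d (chromosome 10, 79974466 to 79981652 on GRCm39), Ndufs7 (80084941 to 80095049) and Uqcr11 (80236542 to 80242676) lie close together on chromosome 10. Their RefSeq promoters (GRCm38.p6, the bases before the most upstream start listed) are shown because these 3 genes lie close together and were called by number without the 3 libraries. The other subunits called there, Atp5f1b among them, are not shown. That of Cox6a1, which was not called by number, is added as it holds 2 elements known from nuclear respiratory genes in the bases shown. They are chr10:80142025-80142274, plus strand for Atp5f1d, chr10:80249199-80249448, plus strand for Ndufs7, chr10:80406822-80407071, minus strand for Uqcr11 and chr5:115348959-115349208, minus strand for Cox6a1. Capitals mark a match to 1 of 4 motifs on either strand: the NRF-1 core GCATGCGC, the ETS or GABP element CCGGAAG, the YY1 element AAGATGGC and the TATA box TATAAA.
Atp5f1d: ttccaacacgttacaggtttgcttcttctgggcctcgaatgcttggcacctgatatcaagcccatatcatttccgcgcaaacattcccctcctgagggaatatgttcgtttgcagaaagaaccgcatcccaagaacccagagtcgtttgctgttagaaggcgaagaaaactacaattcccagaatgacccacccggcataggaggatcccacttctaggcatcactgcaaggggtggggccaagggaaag
Ndufs7: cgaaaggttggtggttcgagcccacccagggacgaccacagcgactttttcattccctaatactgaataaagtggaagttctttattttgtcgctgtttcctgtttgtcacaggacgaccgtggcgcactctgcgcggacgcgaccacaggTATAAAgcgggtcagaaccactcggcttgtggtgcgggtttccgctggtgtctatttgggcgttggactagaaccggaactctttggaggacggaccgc
Uqcr11: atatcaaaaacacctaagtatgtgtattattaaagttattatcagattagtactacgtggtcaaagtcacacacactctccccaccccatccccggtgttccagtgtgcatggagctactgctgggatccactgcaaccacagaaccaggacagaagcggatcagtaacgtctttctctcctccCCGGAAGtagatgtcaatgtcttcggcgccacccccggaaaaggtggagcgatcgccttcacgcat
Cox6a1: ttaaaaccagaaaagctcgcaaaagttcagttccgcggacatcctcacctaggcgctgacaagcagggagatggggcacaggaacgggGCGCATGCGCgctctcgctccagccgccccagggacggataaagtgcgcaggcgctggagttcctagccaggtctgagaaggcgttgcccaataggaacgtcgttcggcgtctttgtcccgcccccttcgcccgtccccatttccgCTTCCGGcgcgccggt

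The capitals are a TATA box match in Ndufs7, an ETS or GABP match in Uqcr11, and in Cox6a1 an NRF-1 core on both strands, 2 matches that overlap, and an ETS or GABP match on the other strand close to the start. Atp5f1d holds none of the 4 in the bases shown. Counted on to 50 bases after the start, Uqcr11 also holds an NRF-1 core and Ndufs7 a YY1 element. Of the 81 tested genes 65 had a promoter in the table. Over 250 bases before to 50 after the start, the NRF-1 core stood in 10 of 65 (15.4%), beside 2.8% of 27026 promoters and 5.48% of those of tested genes. The ETS or GABP element stood in 15 (23.1%, beside 9.14% and 18.7%), the YY1 element in 9 (13.8%, beside 2.87% and 4.82%) and the TATA box in 5 (7.69%, beside 14.2% and 7.21%). A match is a run of letters, not a bound site.

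Other genes of respiration were taken from lists of known members. In every list 0 genes passed edgeR's test in the 3 dose comparisons, as 0 of all genes did. By number, 12.6% of all genes passed with all 18 libraries and 20.8% without the 3. Of 10 tested mitochondrially encoded subunits 0 passed in either, the smallest p being those of mt-Nd5 (35.9 to 118 CPM) and mt-Co3 (1.19 to 4.38 CPM). The summed CPM of all 13 was 1696 to 3477 in the 15 libraries, 3988 in control 1, above all of these, and 861 in 30 µM 6. The rest of the 13 were too low to test. Reads aligned to several places, 17.4% to 20.2% of reads in the 15 libraries, were not counted for any gene. Their part in the levels of these 13 genes was not tested. Over all 18 libraries and against control, the 10 tested had a median log2 fold change of -0.14 for 10 µM and -0.59 for 30 µM, beside 0.0059 and 0.012 over all genes, and 1 of the 10 was lower at 30 µM at an unadjusted p under 0.05 (4.29% of all genes). The lowest sum in the 15 libraries, 1696 CPM, was that of 30 µM 5. No control library was under 2956 CPM and no 10 µM library under 3033 CPM. The libraries kept of numbers 1 to 4, those at 30 µM included, summed to 2965 to 3477 CPM. The part of control 1, 30 µM 5 and 30 µM 6 in the median log2 fold changes was not tested. Cytochrome c (Cycs, 53.02 to 65.1 CPM) and cytochrome c1 (Cyc1, 69.4 to 82.4 CPM), the carrier between complexes III and IV and the haem subunit of complex III, did not pass (adjusted p = 0.679 and 0.337). Of 46 tested assembly factors 2 passed (12.6% of all genes), Cox20 (4.80 to 8.33 CPM, adjusted p = 0.0115) and Tmem126b (16.1 to 22.4 CPM, 0.0485), which help to build complexes IV and I. Without the 3 libraries the adjusted p was 0.0799 for Cox20 and 0.333 for Tmem126b. Of 5 other enzymes that reduce ubiquinone 3 passed (12.6% of all genes) and 2 without the 3 libraries (20.8%). The 3 are Sqor, the sulphide oxidase (11.9 to 25.8 CPM, 0.00323), Gpd2, the glycerophosphate dehydrogenase (43.5 to 56.9 CPM, 0.0306), and Dhodh, the pyrimidine enzyme (17.1 to 25.6 CPM, 0.0413).

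Among 13 tested regulators of respiratory genes 1 passed by number (12.6% of all genes), Polrmt, the mitochondrial RNA polymerase (31.6 to 47.2 CPM, adjusted p = 0.00349), and Hif1a came next (254 to 333 CPM, 0.0598). Of the muscle genes 2 of 12 were high enough to test, and Acta1 passed (15.9 to 29.2 CPM, 0.00227) while Des did not (0.673 to 1.67 CPM, 0.119). Dhodh is not among the 2 smallest p by number of its list and was added with earlier results of these data known. It had log2 fold changes of 0.055 (SE 0.10) at 10 µM and 0.25 (SE 0.10) at 30 µM against control. Its adjusted p at 30 µM was 0.931 in edgeR's quasi-likelihood test on all 18 libraries. Without the 3 libraries 4 regulators passed by number (20.8% of all genes).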

How the data were processed

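Per the labels and the study's methods, total RNA of 18 MEF samples went into stranded paired-end libraries. The authors deposited whole-number counts per gene, and the submitters' processing notes name FastQC, HISAT2, SAMtools 1.2 and HTSeq with the build GRCh38, although the gene identifiers are mouse. Unaligned, ambiguous and other closing entries stayed out of library sizes. Genes were named from the GRCm39 annotation. Counts were scaled by TMM, filtered with filterByExpr and fitted with edgeR 4.0.16 (quasi-likelihood, robust; R 4.3.3) on dose over all 18 libraries, and on dose and number for the test of number, with Benjamini-Hochberg adjustment over all genes tested and a threshold of 0.05. CPM are TMM-scaled. The script was tested on simulated data. Alternatives were DESeq2 1.42.0, limma 3.58.1 voom, RLE factors, library totals, other filters, the replicate block and left-out libraries. The main dose tests paired no number in any comparison, and the replicate block was run as an alternative. Same-numbered deviations correlated under 0.1 for number 1 against control. The control library of number 1 is control 1, and the other numbers against control correlated at 0.139 to 0.595. Without the 3 libraries, number 4 at 30 µM against control correlated at 0.00398. Every pair of 10 µM and 30 µM passed 0.1 in all 18 libraries, lowest 0.101. Values by group are given for the 3 smallest p of each contrast, the 2 smallest by number in each complex, the isoform sets, complex II, subunit c, Atp5if1, the ends of each complex per kb and the 2 smallest p by number of each list. Dhodh was added to those of its list. The members and lists were chosen with earlier results of these data known.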

Additional observations from a re-analysis of the deposited data

Results flagged for a closer look

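In each group of 6 libraries the gap of the lowest or highest library to its neighbour, as a share of the range, was set against Dixon's 95% limit for that number of values. Of 111 groups (complex sums and named genes) 32 passed, where chance passes about 1 in 20, and the groups share libraries. Of the 32 extreme values 27 were low and 5 high. The 30 µM 6 library was the low one for complex I (0.649, at 1919 CPM), complex III (0.785, at 711 CPM), complex IV (0.857, at 1206 CPM), Uqcrh (0.672, at 83.1 CPM), Sdhd (0.756, at 73.2 CPM), Cox6b1 (0.694, at 87.7 CPM), Cox7a2 (0.717, at 57.4 CPM), Cox7a2l (0.743, at 115 CPM), Cox8a (0.649, at 93.9 CPM), Ndufa4 (0.73, at 65.6 CPM), Atp5mc1 (0.813, at 57.1 CPM), Atp5mc2 (0.662, at 46.6 CPM), Atp5mc3 (0.658, at 103 CPM), Uqcr11 (0.653, at 55.1 CPM) and Ndufb8 (0.789, at 58.03 CPM). Control 1 was the low one for complex I (0.641, at 1848 CPM), complex V (0.626, at 3255 CPM), Ndufa13 (0.683, at 57.6 CPM), Cox6b1 (0.793, at 63.02 CPM), Cox8a (0.794, at 63.02 CPM), Atp5mc2 (0.812, at 26.4 CPM) and Uqcrc1 (0.637, at 158 CPM). It was the high one for Sdhc (0.834, at 112 CPM), Atp5mc3 (0.647, at 174 CPM) and Atp5mj (0.769, at 72.2 CPM). The 10 µM 6 library was the low one for complex I (0.705, at 1942 CPM), complex IV (0.642, at 1373 CPM), Ndufa4 (0.791, at 112 CPM), Atp5mc2 (0.642, at 65.8 CPM) and Atp5mj (0.782, at 45.8 CPM). Outside these 3 libraries, control 4 was high for Ndufa2 (0.719, at 76.9 CPM) and 30 µM 5 for Atp5f1b (0.825, at 1879.8 CPM). The share of unaligned reads was largest in the 3 libraries named first, and its part in these values was not tested.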

How the results depend on the processing

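In every alternative run, 0 subunits passed an adjusted p of 0.05 in the 3 dose comparisons and among the doses. Leaving out each library in turn, the number of subunits above 0 was 51 to 73 at 10 µM, 31 (without control 1) to 70 (without 30 µM 6) at 30 µM, and 15 (without 10 µM 6) to 53 (without 30 µM 6) between the doses, and the median log2 fold change ran 0.012 to 0.10, -0.017 to 0.072 and -0.079 to 0.024, so its sign turned with 1 library in the last 2. With voom 69 were above 0 at 30 µM; between the doses 16 were with library totals alone and 50 without control 1 and 30 µM 6. With the number as a replicate block they were 65, 43 and 28, and the block changed no call. At an unadjusted p under 0.05 the block without the 3 libraries gave 5 subunits at 10 µM against control (3.72% of all genes), where the fit with no block gave 9. The count of subunits called by number, 5, was the least stable: 3 with library totals alone (11.4% of all genes), 2 with no filter (5.65%), 13 with DESeq2 (21.6%), 42 with voom (42.4%), 12 without control 1 and 30 µM 6 (23.6%), 8 without the 3 libraries (20.8%), 18 without control 1 (25.03%), 23 without control 6 (23.3%) and 2 to 4 without any other single library (9.08% to 11.9%). The share of subunits called was above that of all genes with voom (51.9%) and without control 6 (28.05%), and below it in the others named here. The cause was not tested. Ndufs7 and Atp5f1d passed without each library in turn, with adjusted p by edgeR's quasi-likelihood test of at most 0.032 and 0.0313. Control 1 had 3963932 counts, which limits the precision of its low genes.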

Other observations

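Atp5f1d, Ndufs7 and Uqcr11 share a stretch of chromosome 10 with many other genes called by number. This was noticed after the values were seen and is given as a description. Of 54 tested genes between 79500001 and 80500000 on chromosome 10 (GRCm39), 17 (31.5%) passed the test of number, beside 12.6% of all genes, and 15 of these were higher in numbers 5 and 6 than in 1 to 3, with 1 lower. Without control 1, 10 µM 6 and 30 µM 6 it was 31 of 54 (57.4%) beside 20.8% of all genes, 27 higher and 2 lower. Atp5f1d and Ndufs7 are among the 17, and these and Uqcr11 are among the 31, so both shares include genes that led to the stretch. The genes are close neighbours and not independent, and no test was made of the stretch.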
